A study of Mus musculus with 8 samples.

Results

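Chemokines are small secreted proteins that guide migrating cells, and the genes described here are the 60 of 45583 symbols in the table of gene counts whose names mark them as a chemokine (Ccl, Cxcl, Cx3cl or Xcl with a number) or as a chemokine receptor (Ccr, Cxcr, Cx3cr, Xcr or Ackr with a number). They comprise 38 ligands and 22 receptors. Of these, 22 had a mean of at least 0.5 CPM (the count of a gene scaled to the size of its library) over the 8 libraries and were tested, and the other 38 were treated as not detected. The members just inside that limit were Cxcl5 (mean 0.672 CPM) and Ccl2 (0.676 CPM), and just outside it were Ccl12 (0.4998 CPM, from 71 counts) and Ccl11 (0.431 CPM).

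RNA of whole ovaries was sequenced from 4 WT and 4 GOAT KO female mice on a C57/Bl6 background at 3 weeks of age, each mouse giving 1 ovary and 1 library. The enzyme ghrelin-O-acyltransferase (GOAT), encoded by Mboat4, attaches to ghrelin the fatty acid that its receptor requires. The deletion is carried in the whole body from conception, the groups are littermates from heterozygous parents, and no group received a treatment. The comparison asked whether the juvenile ovary differs between genotypes, here in its chemokine system.

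Mboat4 itself had 1, 1, 1 and 3 counts in WT 1118, 1119, 1120 and 1121, and 5, 7, 7 and 8 counts in GOAT KO 1139, 1140, 1141 and 1146. Its counts were thus higher in each library labelled GOAT KO than in each library labelled WT, against the label, and which stretch of the gene the deletion removes is not given in the sources used here. The study's methods describe a PCR assay to check that Mboat4 is absent from GOAT KO ovaries, which is not analysed here. With so few counts and that stretch unknown, the counts of Mboat4 cannot decide whether the labels are right. Groups are therefore called by their labels throughout, and every direction below rests on those labels. Counts on genes summed to between 16147216 and 19481798 per library. Summed markers of granulosa cells (4616 to 5819 CPM), theca cells (1964 to 3160 CPM) and oocytes (985 to 1207 CPM) were present in all 8 libraries. GOAT KO 1139 stood apart in adipose markers, with a sum of 451 CPM against 13.4 to 30.03 CPM in the other 7, and in mast cell markers, with 6.63 CPM against 1.15 to 2.40 CPM. WT 1120 had the granulosa marker Cyp19a1 at 64.9 CPM, against 5.05 to 9.69 CPM in the other WT libraries. Its level of the theca marker Cyp17a1 was 355 CPM, against 50.2 to 58.7 CPM. GOAT KO 1139 was at 45.1 and 600 CPM, against 6.84 to 31.5 and 42.3 to 137 CPM in the other GOAT KO libraries. Results are also given for the 6 libraries left without WT 1120 and GOAT KO 1139, the set an earlier analysis of these data identified as the one the study compared.

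Chemokines bind receptors of the G protein-coupled family on leukocytes and many other cells, and classes are named after the spacing of cysteines near the start of the protein (CC, CXC, CX3C and XC). Conventional receptors signal through inhibitory G proteins and direct migration, whereas the atypical receptors (Ackr genes) bind or take up chemokines without that signal. In the ovary the pair Cxcl12 and Cxcr4 is known for guiding primordial germ cells to the gonad, and Cxcl1 and related ligands are known for recruiting neutrophils around ovulation. In a whole-ovary library, fewer cells of one type and less RNA per cell cannot be told apart.

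Few of the chemokine system genes made up most of its gene counts in the juvenile ovary. Cxcl12, Cxcl14, Ackr3 and Cx3cl1 held 80.7% of all counts on the 60 genes, and the 38 undetected genes together held 2.14%. Ccl21a, which is among the 38, had 2 gene counts but 216 reads across splice junctions, so its true share is not known. Between libraries labelled WT and GOAT KO the differences were small against the spread. Cxcr3 and Cxcl1 were lower in GOAT KO at an unadjusted p below 0.05, and neither passed adjustment over all genes tested. The fit covered 16854 genes.

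The order of the genes was compared on the scale of CPM per kilobase of exon, since a long transcript yields more counts. Cxcl14, a CXC ligand of epithelia and stroma, had the highest level, at 38.3 ± 6.70 CPM per kilobase (SD, n = 8), and lay above the next gene in every library. Ackr3, the atypical receptor that takes up Cxcl12, followed at 11.7 ± 1.503, Cx3cl1 at 8.94 ± 1.39 and Cxcl12 at 8.49 ± 1.23 CPM per kilobase, and the ranges of these neighbours overlapped. Cxcl12 in turn lay above Cxcl1 (4.00 ± 1.07 CPM per kilobase) in every library. Cxcl1 lay above Cxcl16 (3.11 ± 0.293 CPM per kilobase) in 6 of 8 libraries. Cxcl16 lay above Ccl27a (2.46 ± 0.277 CPM per kilobase) in each of the 8, although the ranges of this pair overlapped across libraries. Ccl27a lay above Cxcr4 (1.58 ± 0.259 CPM per kilobase), and Cxcr4 above Cx3cr1 (0.796 ± 0.240), in all 8 libraries. Below Cx3cr1 no gene lay above the next in every library. By class, the 6 tested CXC ligands supplied 65.0% of the summed level per kilobase, the 3 atypical receptors 14.5%, Cx3cl1 10.6%, the 6 CC ligands 5.41% and the 6 conventional receptors 4.52%. Lengths are those of the GENCODE annotation, and the SD here runs over both genotypes. Ccl21a was not tested and its level is not known, so it has no place in this order or in these shares.

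**Figure D1:**
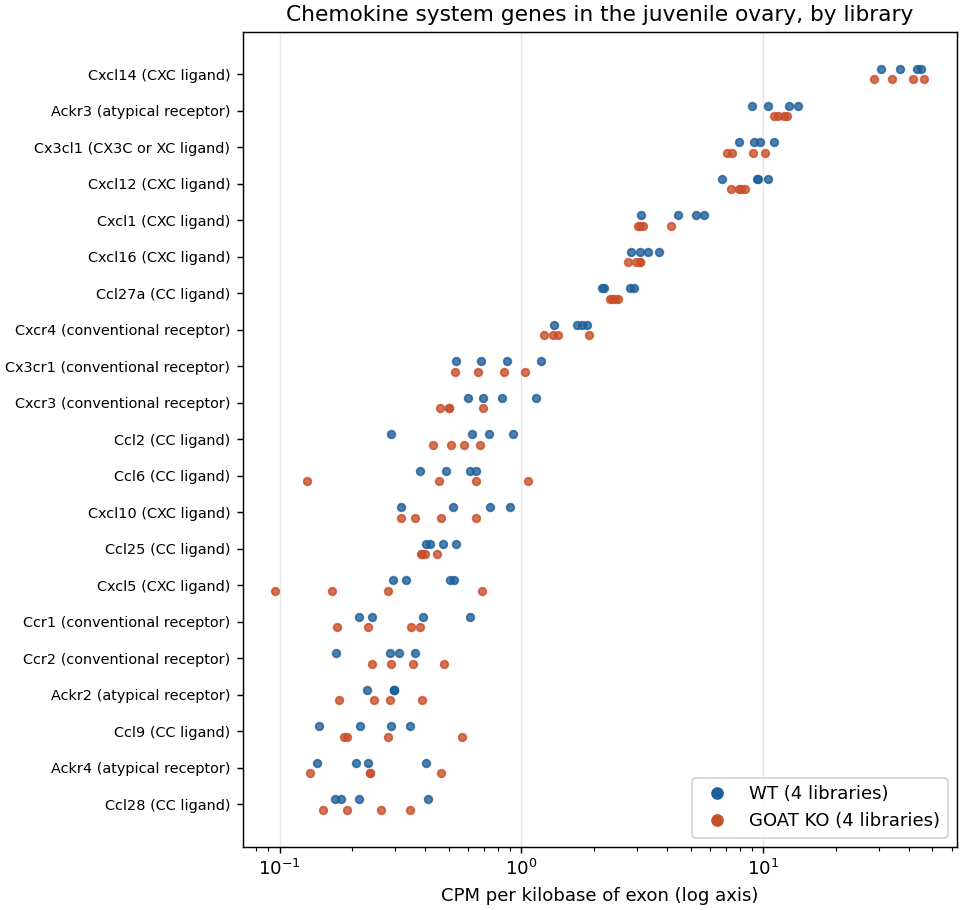
Level of 21 of the tested genes in each library, in CPM per kilobase of exon on a log axis, with the class of each gene in brackets (blue, 4 WT libraries, and orange, 4 GOAT KO libraries). Cxcl14 lies to the right of all other genes in every library, at 28.7 to 46.2 CPM per kilobase, and the blue and orange points overlap for each gene.

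Between genotypes, 1 of the 22 tested genes, Cxcr3, passed the thresholds the study used for a call (unadjusted p below 0.05 and an absolute log2 fold change above 0.5), where 1.83% of all genes tested passed, and 0.742% passed with a lower level in GOAT KO. At an unadjusted p below 0.05 alone there were 2 genes (9.09%), Cxcl1 and Cxcr3, against 4.74% of all genes. After Benjamini-Hochberg adjustment in edgeR's quasi-likelihood test, none of the 22 had an adjusted p below 0.05 (smallest 0.981), and in DESeq2 none either, with 1 gene at an unadjusted p below 0.05. Over all genes, 4 (0.0237%) passed adjustment in edgeR. For none of the 22 were the libraries of both labels fully separated, which held for 2.92% of all genes, and with GOAT KO below WT for 1.27%.

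With the 6 libraries, Cxcl1, Cxcl12 and Cxcr3 (13.6% of the 22) had an unadjusted p below 0.05, against 9.37% of all genes, and 2 of them were called, against 2.40%. None passed adjustment in edgeR, against 0.119% of all genes. The 3 libraries of each label did not overlap for 4 genes (Ccl25, Cxcl1, Cxcl12 and Cxcr3), all lower in GOAT KO (18.2%), against 7.48% of all genes lower and 15.7% in either direction. Without the limit on low counts, 4 of 53 members with a count were called in all 8 libraries, against 2.52% of all genes.

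The direction of the small differences was mostly the same. The log2 fold change of GOAT KO over WT was below 0 for 17 of the 22 genes (77.3%), against 50.1% of all genes, and its median was -0.14, against -0.00026 over all genes. With the 6 libraries it was below 0 for 20 of 22 (90.9%), against 49.7% of all genes, 16 genes being below 0 in both sets. Genes measured in the same libraries are not independent of one another. WT 1118 had the highest level of 8 of the 22 genes, WT 1120 the lowest of 6 and GOAT KO 1140 the lowest of 6. By class, the log2 fold change was below 0 for 6 of 6 CXC ligands, 4 of 6 CC ligands, 5 of 6 conventional receptors and 1 of 3 atypical receptors.

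**Figure D2:**
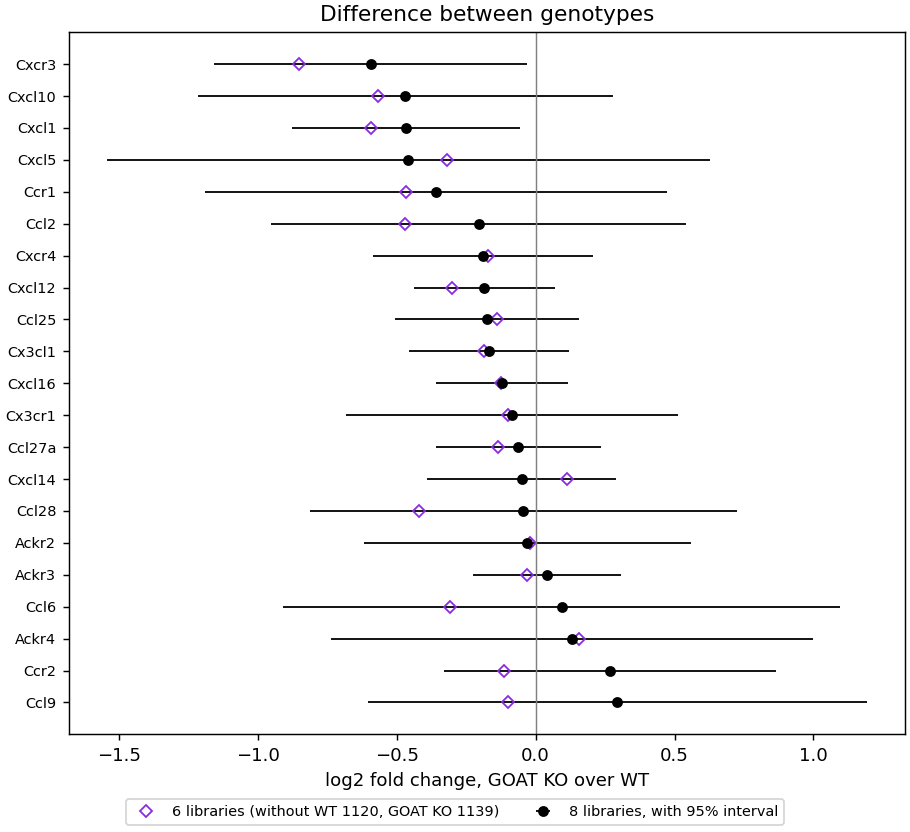
Log2 fold change of GOAT KO over WT for 21 of the tested genes, with filled points and 95% intervals from all 8 libraries and open diamonds from the 6 libraries without WT 1120 and GOAT KO 1139. The intervals of Cxcr3 and Cxcl1 lie below 0 and the other 19 include 0.

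Among CXC ligands, Cxcl1 (chr5:90891241-90893115, plus strand), a ligand of Cxcr2 that attracts neutrophils, was measured at 10.7, 9.88, 5.87 and 8.33 CPM in WT 1118, 1119, 1120 and 1121, and at 5.97, 7.75, 5.78 and 5.69 CPM in GOAT KO 1139, 1140, 1141 and 1146, the order used for all lists of values that follow. WT 1120 lay among the GOAT KO libraries and GOAT KO 1140 above the rest of its group, so the groups overlapped. The means were 8.70 ± 2.13 and 6.30 ± 0.977 CPM (SD, n = 4 each), a log2 fold change of -0.46 (SE 0.19, unadjusted p = 0.0299, Benjamini-Hochberg adjusted p = 0.981, edgeR's quasi-likelihood test) or 0.725-fold with an interval of 0.545 to 0.963. An exact two-sided permutation test of the 8 values gave p = 0.0857, where the smallest p this design allows is 0.0286. With the 6 libraries the log2 fold change was -0.59 (SE 0.16, unadjusted p = 0.00376, adjusted p = 0.367 in edgeR).

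The bases just before the start of Cxcl1 hold a match to the NF-κB consensus, the motif through which inflammatory signals switch on this gene, and they are shown with those of Cxcl12, the ligand with the smallest p in the 6 libraries, which have none. Both are from RefSeq (GRCm38.p6), plus strand, 5′ to 3′, and capitals mark each motif match. For Cxcl1 (chr5:90890995-90891240) the capitals are, in order, the hypoxia response core ACGTG on the minus strand and 2 overlapping NF-κB matches, 1 on each strand, that span bases 71 to 61 upstream of the RefSeq start. For Cxcl12 (chr6:117168285-117168534) they are 5 matches to the GC box GGGCGG on both strands, of which the last 2 overlap.
Cxcl1: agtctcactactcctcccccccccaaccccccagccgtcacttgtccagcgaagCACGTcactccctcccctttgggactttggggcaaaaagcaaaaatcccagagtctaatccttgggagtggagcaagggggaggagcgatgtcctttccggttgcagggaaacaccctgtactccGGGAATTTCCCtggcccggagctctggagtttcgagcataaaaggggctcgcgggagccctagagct
Cxcl12: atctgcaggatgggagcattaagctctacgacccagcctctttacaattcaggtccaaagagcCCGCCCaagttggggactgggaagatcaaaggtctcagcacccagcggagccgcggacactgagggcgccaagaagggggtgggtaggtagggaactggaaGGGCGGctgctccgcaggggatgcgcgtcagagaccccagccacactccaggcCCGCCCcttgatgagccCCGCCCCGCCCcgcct

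Windows of 250 bases before the start were searched on both strands for 18 of the 22 tested genes and for 32851 windows in all. The NF-κB consensus was found for 4 of the 18 (Cxcl1, Cxcl10, Ccl9 and Ackr2) and in 3.90% of all windows. The GC box was found for 6 of 18 and in 32.7% of all windows, the TATA box TATAAA for 6 of 18 and in 12.4%, and ACGTG for 2 of 18 and in 16.6%. A gene was scored as matched if any of its windows matched, so the share of genes and the share of windows differ in unit. These are matches of letters and no binding was measured. No match was found in the window of Cxcr3, a gene whose GENCODE start lies upstream of the RefSeq start used here.

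Cxcl12 (chr6:117168535-117181367, plus strand), the ligand of both Cxcr4 and Ackr3, stood at 85.8, 77.5, 55.4 and 77.0 CPM in the libraries labelled WT and at 64.7, 60.2, 68.6 and 66.3 CPM in those labelled GOAT KO. Of the WT libraries 1120 was lower than every GOAT KO library and the other 3 were higher than every GOAT KO library. The log2 fold change was -0.19 (SE 0.11, unadjusted p = 0.136 in edgeR) with all 8 libraries and -0.30 (SE 0.07, unadjusted p = 0.00201, adjusted p = 0.330 in edgeR) with the 6, below the size of 0.5 that a call required.

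Cxcl14 (chr13:56288643-56296551, minus strand), a ligand for which no conventional receptor is settled, was at 67.3, 56.0, 78.9 and 82.2 CPM in WT and at 52.4, 62.0, 84.4 and 75.9 CPM in GOAT KO. The groups overlapped over most of their range. The fit gave a log2 fold change of -0.05 (SE 0.15) with all 8 libraries and 0.11 (SE 0.14) with the 6.

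Cxcl10 (chr5:92346638-92348889, minus strand), an interferon-induced ligand of Cxcr3, was at 1.18, 1.66, 0.713 and 2.02 CPM in WT and at 0.717, 1.46, 0.818 and 1.04 CPM in GOAT KO. The 2 highest values were of libraries labelled WT and so was the lowest. The log2 fold change was -0.47 (SE 0.34, unadjusted p = 0.193 in edgeR). It lies within the span of Art3 on the opposite strand, and the sources used here do not say whether counting used the strand.

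Cxcl16 (chr11:70453983-70459984, minus strand), a membrane-bound ligand of Cxcr6, was at 9.34, 8.60, 10.1 and 11.2 CPM in WT and at 9.38, 8.36, 8.998 and 9.34 CPM in GOAT KO. Its libraries differed by no more than 1.34-fold, the narrowest range of the 22 genes, and its log2 fold change was -0.12 (SE 0.11). The span of Zmynd15 on the opposite strand overlaps it and 16.9% of its 50-base windows also occur in transcripts of Zmynd15. Cxcl5, another ligand of Cxcr2, ranged from 0.179 CPM in GOAT KO 1139 to 1.28 CPM in GOAT KO 1140, with a log2 fold change of -0.46 (SE 0.49). The closely related Cxcl2 was not detected, with 4, 0, 1 and 1 counts in WT and 0, 0, 1 and 3 in GOAT KO.

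**Figure D3:**
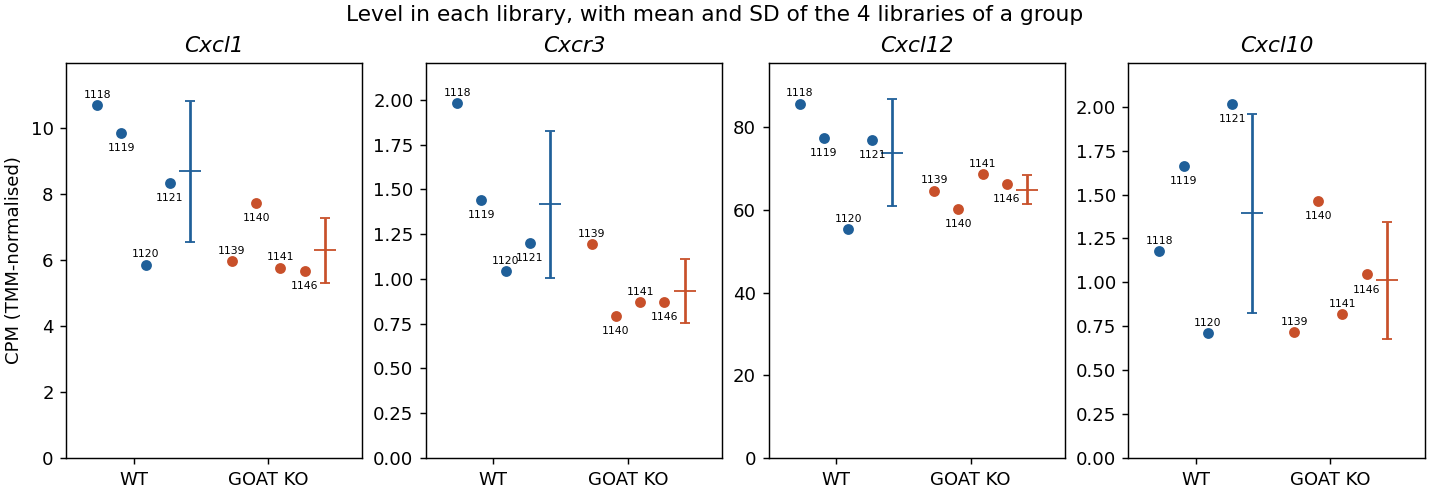
TMM-normalised CPM of Cxcl1, Cxcr3, Cxcl12 and Cxcl10 in each library, labelled by its animal number, with the mean (horizontal bar) and SD (vertical bar) of the 4 libraries of each group. WT 1120 is the lowest WT library in all 4 panels, and the WT and GOAT KO points overlap in each.

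Cx3cl1 (chr8:94772009-94782427, plus strand), the membrane-tethered CX3C ligand of Cx3cr1, was at 38.2, 36.0, 43.4 and 31.1 CPM in WT and at 39.8, 35.8, 29.1 and 27.7 CPM in GOAT KO. The 2 lowest libraries were labelled GOAT KO and the others were interleaved. The log2 fold change was -0.17 (SE 0.13).

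Among CC ligands, Ccl27a (chr4:41769467-41774247, minus strand), known from skin as a ligand of Ccr10, was at 6.93, 5.22, 5.10 and 6.70 CPM in WT and at 5.79, 5.62, 5.98 and 5.51 CPM in GOAT KO. The GOAT KO libraries lay between the 2 lower and the 2 higher WT libraries. Near-identical copies of this gene share 45.0% of its 50-base windows, so its counts are uncertain.

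Ccl25 (chr8:4325210-4360020, plus strand), the ligand of Ccr9, was at 3.53, 3.11, 4.00 and 3.00 CPM in WT and at 3.35, 2.87, 2.97 and 2.90 CPM in GOAT KO. Only GOAT KO 1139 lay within the range of the WT libraries, and the log2 fold change was -0.17 (SE 0.15, unadjusted p = 0.272 in edgeR). Its receptor Ccr9 was not detected, with 7 counts in all.

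Ccl2 (chr11:82035571-82037453, plus strand), which attracts monocytes through Ccr2, was at 1.05, 0.832, 0.329 and 0.708 CPM in WT and at 0.657, 0.488, 0.767 and 0.580 CPM in GOAT KO. WT 1120 was the lowest library and WT 1118 the highest, and the log2 fold change was -0.21 (SE 0.34). Ccl6, Ccl9 and Ccl28 had log2 fold changes of 0.09, 0.29 and -0.04 with SEs of 0.35 to 0.45. Ccl6, a myeloid ligand of Ccr1, spread the most of all tested genes, 8.23-fold from 0.232 CPM in GOAT KO 1146 to 1.91 CPM in GOAT KO 1139. GOAT KO 1139 also had the highest level of Ccl9, at 1.73 CPM against 0.444 to 1.05 CPM in the other 7 libraries.

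Among conventional receptors, Cxcr3 (chrX:101731535-101734269, minus strand), the receptor of activated T and NK cells for Cxcl9 and Cxcl10, was at 1.98, 1.44, 1.04 and 1.198 CPM in WT and at 1.195, 0.793, 0.869 and 0.871 CPM in GOAT KO. The 3 lowest libraries were labelled GOAT KO, and GOAT KO 1139 lay between WT 1120 and WT 1121. The means were 1.42 ± 0.411 and 0.932 ± 0.179 CPM (SD, n = 4 each), a log2 fold change of -0.59 (SE 0.26, unadjusted p = 0.0407, Benjamini-Hochberg adjusted p = 0.981, edgeR's quasi-likelihood test) or 0.663-fold with an interval of 0.449 to 0.979. The exact two-sided permutation p was 0.0571, and with the 6 libraries the log2 fold change was -0.85 (SE 0.28, unadjusted p = 0.0117, adjusted p = 0.446 in edgeR). In DESeq2 the unadjusted p was 0.0829, which ends the call.

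The call of Cxcr3 was also lost without WT 1118, WT 1119, GOAT KO 1140, GOAT KO 1141 or GOAT KO 1146, each left out alone, with log2 fold changes of -0.40 to -0.58. Summed markers of T and NK cells were at 6.19, 3.61, 3.02 and 4.14 CPM in WT and at 4.24, 3.11, 3.89 and 3.25 CPM in GOAT KO, with none of the 10 at 0 in all libraries and 2 of the 10 passing the limit for a test. WT 1118 was the highest library both for Cxcr3 and for this sum. The part of these cells in the Cxcr3 difference was not tested.

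Cxcr4 (chr1:128588199-128592293, minus strand), the signalling receptor for Cxcl12, was at 2.48, 3.22, 3.07 and 3.38 CPM in WT and at 2.57, 2.44, 2.25 and 3.42 CPM in GOAT KO. The highest library and the 2 lowest were labelled GOAT KO, and the log2 fold change was -0.19 (SE 0.18). Cx3cr1 (chr9:119901616-120069879, minus strand), the macrophage receptor for Cx3cl1, was at 5.45, 3.05, 2.41 and 3.92 CPM in WT and at 2.39, 2.99, 4.65 and 3.83 CPM in GOAT KO, with the groups interleaved and a log2 fold change of -0.08 (SE 0.27). Its annotated span contains Gorasp1, Csrnp1 and Xirp1 on the same strand.

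Ccr2 (chr9:124101950-124113557, plus strand), the monocyte receptor for Ccl2, was at 2.10, 1.94, 1.15 and 2.45 CPM in WT and at 3.23, 1.95, 2.40 and 1.63 CPM in GOAT KO. The lowest library was WT 1120 and the highest GOAT KO 1139. The fit gave 0.27 (SE 0.27) on the log2 scale with all 8 libraries and -0.11 (SE 0.22) without those libraries. Ccr1, a further receptor of myeloid cells, ranged from 0.488 CPM in GOAT KO 1140 to 1.74 CPM in WT 1121, and its log2 fold change was -0.36 (SE 0.38).

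Among atypical receptors, Ackr3 (chr1:90203980-90216751, plus strand) was at 46.3, 35.1, 30.2 and 42.6 CPM in WT and at 37.0, 40.8, 42.1 and 38.5 CPM in GOAT KO. The GOAT KO libraries lay inside the range of the WT libraries, and the fold change was 1.03 with an interval of 0.855 to 1.24. Ackr2, which takes up inflammatory CC chemokines, and Ackr4, which takes up Ccl19, Ccl21 and Ccl25, had log2 fold changes of -0.03 (SE 0.27) and 0.13 (SE 0.39). Ackr4 lies within the span of Acad11 on the opposite strand, with which it shares 7.21% of its 50-base windows.

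The precision set how large a difference could have been missed. For 7 genes (Cxcl14, Cxcl12, Cxcl16, Cx3cl1, Ackr3, Ccl25 and Ccl27a) the 95% interval held no change of 1.5-fold or more in either direction, and for 16 genes none of 2-fold or more. The dispersion in edgeR of 15 of the 22 genes (68.2%) lay above the trend for genes of like level, against 24.99% of all genes tested.

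Marker lists of leukocytes did not all move in 1 direction. All 10 macrophage markers had a log2 fold change below 0, against 50.1% of all genes, with a median of -0.31. Of the 10, 5 were lower in GOAT KO with an unadjusted p below 0.05 in edgeR, against 2.14% of all genes. Their sum lay at 176 to 231 CPM in WT and at 161 to 187 CPM in GOAT KO. Lyz2, which encodes lysozyme, stood at 58.9 ± 6.11 CPM in WT and at 41.0 ± 7.68 CPM in GOAT KO (log2 fold change -0.52, SE 0.13, unadjusted p = 0.0019, adjusted p = 0.970 in edgeR). Of the markers of dendritic cells and MHC class II, 3 of the 6 tested lay below 0 and 3 above, with a median of -0.02. Without WT 1120 and GOAT KO 1139 their median was -0.30, and H2-Ab1, a chain of MHC class II, stood at -0.69 (unadjusted p = 0.0172 in edgeR) against 0.025 with all 8. Both tested mast cell markers, the proteases Cma1 and Tpsb2, were called higher in GOAT KO, by 1.05 and 1.95 on the log2 scale. Over all genes 184 of 16854 were called higher. In the set of 6 libraries the log2 fold changes of Cma1 and Tpsb2 were 0.62 and 0.87 and neither was called (unadjusted p = 0.140 and 0.0735 in edgeR). Tpsb2 was at 2.81 CPM in GOAT KO 1139 and at 0.549, 0.767 and 0.348 CPM in the other GOAT KO libraries. Neutrophil markers, the cells that Cxcl1 attracts, had sums at 0.610 to 1.48 CPM in WT and at 1.04 to 1.59 CPM in GOAT KO, and 1 of 8 passed the limit for a test, with Camp at 0 in all 8 libraries. Summed B cell markers were at 10.4 to 11.8 and 10.5 to 12.7 CPM, blood endothelium markers at 250 to 302 and 243 to 288 CPM, and lymphatic endothelium markers at 137 to 306 and 148 to 278 CPM in WT and GOAT KO. Most of the lymphatic sum was Reln, at 82.5 to 250 CPM over the 8 libraries. Flt4 was at 31.1 to 42.8 CPM, Lyve1 at 11.1 to 13.9 CPM and Prox1 at 9.65 to 15.2 CPM. The part of macrophages or other cells in the chemokine differences was not tested.

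**Figure D4:**
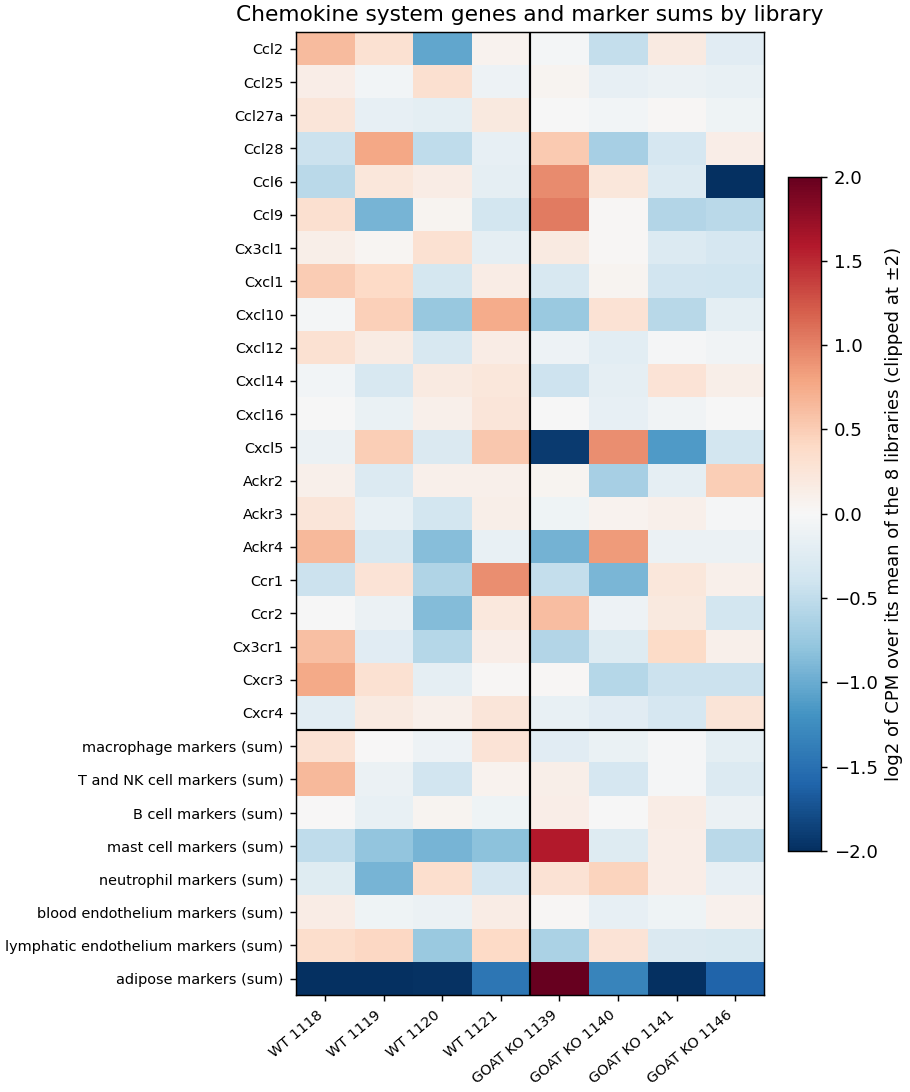
Log2 of the CPM of 21 of the tested genes, and of the summed CPM of 8 marker lists, over its mean of the 8 libraries, with red above and blue below that mean and the color limited at 2 either way. Columns are libraries, split by genotype, and GOAT KO 1139 stands out in the mast cell and adipose sums, the latter at 451 CPM. The lymphatic endothelium sum is mostly Reln.

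Reads across splice junctions gave a further readout of the same libraries for 6 tested genes with at least 20 such reads. For Cxcl1 they numbered 12, 16, 8 and 12 in WT and 13, 16, 18 and 16 in GOAT KO. This is 0.681 ± 0.188 and 0.900 ± 0.0863 reads on the CPM scale (SD, n = 4 each), a log2 ratio of 0.40 (exact two-sided permutation p = 0.0571, adjusted p = 0.343 over the 6 genes). The sum ran opposite to the gene counts, but its introns did not all run that way. The last intron, with 72 of the 111 reads, had 12, 9, 8 and 12 reads in WT and 6, 9, 10 and 6 in GOAT KO, fewer in GOAT KO as in the gene counts. The second intron had 0, 7, 0 and 0 in WT and 7, 7, 5 and 6 in GOAT KO, and the first had 7 reads in all, each in GOAT KO. The summed reads of the groups overlapped, and no direction is drawn from them. For Cxcl12 they numbered 81, 29, 40 and 52 in WT and 30, 27, 45 and 33 in GOAT KO, a log2 ratio of -0.61 (exact permutation p = 0.257, adjusted p = 0.771). For Cxcl14, Cx3cl1, Cxcl16 and Ccl27a the log2 ratios ran from -0.15 to 0.20 with exact permutation p of 0.743 to 1.

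Of the 38 genes below the limit, 7 had no count in any library, and 31 had between 1 and 71 counts in all. For Ccl26, Cxcl15 and Cxcr1, 0 counts over the summed 8 libraries allow up to 0.0213 CPM, a limit that covers counting error only. Ccl19, Ccl21b, Ccl27b and Cxcl11 were also at 0, but 52.0%, 100%, 98.1% and 40.4% of their 50-base windows occur in other transcripts, and Ccl21b and Ccl27b had 48 and 8 junction reads, so no limit is given for them. The partners of several detected genes were among the 38. Cxcr2, the receptor for Cxcl1, Cxcl2 and Cxcl5, had 1 count in WT 1118 and 1 in GOAT KO 1146. Cxcr6, the receptor for Cxcl16, had 9, 7, 8 and 14 counts in WT and 5, 7, 5 and 2 in GOAT KO. Ccr7, the receptor for Ccl19 and Ccl21, had 17 counts in WT and 20 in GOAT KO in all, and Cxcl9, the other ligand of Cxcr3, had 23, 1, 2 and 17 counts in WT and 6, 4, 4 and 1 in GOAT KO. Both XC genes, Xcl1 and its receptor Xcr1, and Ackr1 had no more than 9 counts in any library.

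For Ccl21a, a ligand of Ccr7, gene counts and junction reads differed. It had 2 gene counts, both in GOAT KO 1140. Yet 40, 62, 8 and 12 reads in WT and 29, 41, 10 and 10 reads in GOAT KO crossed its second intron (chr4:42773549-42773642, minus strand, GRCm38), 212 in all. WT 1118, WT 1119, GOAT KO 1139 and GOAT KO 1140 had the most, so high and low libraries occurred under both labels. Introns 1 and 3 had 2 reads each. The second intron of Ccl21b (chr4:42256043-42256136, plus strand) and of its near copies Gm13304, Gm21541 and Gm10591 had 34 to 39 reads each, with Ccl21b at 0, 0, 8 and 8 in WT and 6, 6, 7 and 0 in GOAT KO. Spliced across this intron, the 25 bases on each side differ between Ccl21a and the other 4 copies by the substitution C31T, counted from 1 at the 5′ end of the transcript strand and set in capitals here. That base lies 6 bases past the junction, so a read that reaches fewer bases past it does not show the difference.
Ccl21a: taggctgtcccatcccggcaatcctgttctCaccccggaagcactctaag
Ccl21b, Gm13304, Gm21541 and Gm10591: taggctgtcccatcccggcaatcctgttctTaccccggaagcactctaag

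Of the 50-base windows of Ccl21a transcripts 71.6% also occur in the other copies, and of those of Ccl21b 100%. How the deposited counting treated a read with several positions is not given in the sources used here, and a read may be listed at more than 1 copy, so the level of Ccl21 in these ovaries cannot be taken from the gene counts. Similar sharing held for Ccl27b (98.1%) and Ccl19 (52.0%), which are also at 0. Among the tested genes other than Ccl27a and Cxcl16 it was at most 7.21%.

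**Figure D5:**
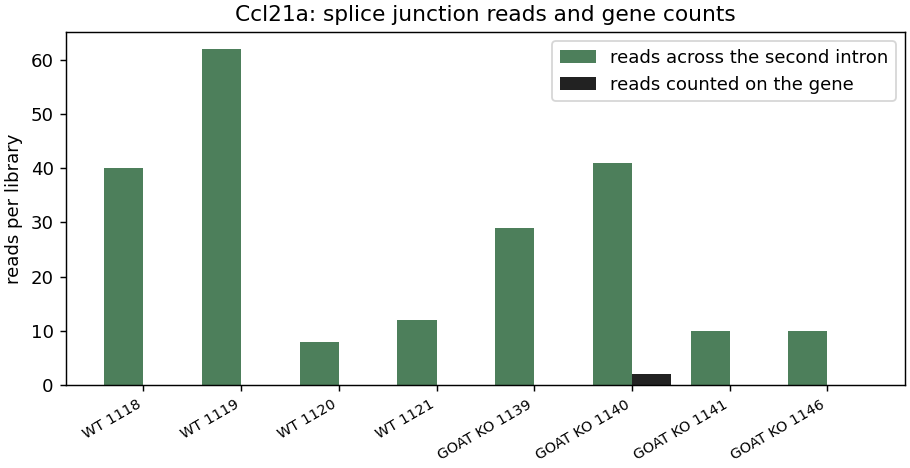
Reads per library that cross the second intron of Ccl21a (green) and reads counted on the gene (black), for 4 WT and 4 GOAT KO libraries. Between 8 and 62 junction reads per library stand beside gene counts of 0, or of 2 in GOAT KO 1140.

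Genes that act with the chemokine receptors were taken from 3 lists. Of 61 gene symbols listed for signalling downstream of the receptors, 59 were among the counted symbols. Of these 55 were tested, of which 34 had a log2 fold change below 0 and 21 above, with a median of -0.03. The call was passed by 1 of the 55, a share near the 1.83% of all genes called. It was Rgs16, a regulator that shortens G protein signals, at 3.47, 3.11, 2.36 and 3.10 CPM in WT and at 1.67, 2.62, 2.05 and 2.03 CPM in GOAT KO (log2 fold change -0.52, SE 0.19, unadjusted p = 0.0189, adjusted p = 0.981 in edgeR). WT 1120 lay below GOAT KO 1140, and the other WT libraries lay above all libraries labelled GOAT KO. Arrb1, a β-arrestin that ends receptor signals, had a log2 fold change of -0.12 (SE 0.05, unadjusted p = 0.0502 in edgeR). Of 22 chemotactic factors and receptors under other symbols, 17 were tested, 8 below 0 and 9 above, and none had an unadjusted p below 0.05 in edgeR. Of 28 inducers of inflammation and NF-κB genes, 23 were tested, 15 below 0 and 8 above. An unadjusted p below 0.05, met by 4.74% of all genes, was found for 1 of the 23, Irf1, an interferon-response transcription factor (58.2 ± 3.23 and 51.8 ± 1.38 CPM, log2 fold change -0.17, SE 0.06, unadjusted p = 0.0185, adjusted p = 0.981 in edgeR).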

How the data were processed

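RNA of 8 ovaries (4 WT, 4 GOAT KO) was sequenced by the authors as single reads of 50 bases, aligned to the mouse genome (GRCm38) with TopHat2 2.0.14, and deposited as counts per gene symbol without normalization and as counts of reads across splice junctions. Per the labels transcripts were assembled with StringTie 1.0.4, and these were not used here. The counting tool and its use of strand are not given in the sources used here. Library totals of 16147216 to 19481798 counts make 3 counts equal to 0.153 to 0.186 CPM.

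The members and gene lists were chosen with earlier results of these data known. Genes with a mean of at least 0.5 CPM over the 8 libraries were fitted in edgeR 4.0.16 (R 4.3.3, TMM scaling, quasi-likelihood test, Benjamini-Hochberg adjustment over all 16854), and called at p below 0.05 with an absolute log2 fold change above 0.5, the study's thresholds. The fit was tested on simulated data. Single values were compared by exact permutation. Genes given in every library were those with p below 0.05 in either set of libraries, the 10 highest per kilobase and the tested members of the pairs Cxcl12 with Cxcr4 and Ackr3, Cx3cl1 with Cx3cr1, Ccl2 with Ccr2, Cxcl16 with Cxcr6, Ccl25 with Ccr9, Cxcl10 with Cxcr3 and Cxcl1 with Cxcr2. The others are given by range or fold change. Positions and exon lengths are from GENCODE vM21 (GRCm38), a later release than the authors used, which placed all 60 members. Alternatives were RLE size factors, DESeq2 1.42.0, other filters, 6 libraries and leaving out each library. Junction reads of Cx3cr1 were not tested because other genes on its strand lie in its span, a departure from the plan. Junctions leaving the third exon of Cxcl12 had 22 reads in all, too few to compare its last exons. Of the tested members, 1 is counted but not reported here by name. Protein sequences were not used here. No pair of libraries of 1 group agreed within sampling noise (chi-square per gene 4.18 to 26.6).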

Additional observations from a re-analysis of the deposited data

Results flagged for a closer look

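Of 44 groups of 4 values looked at (22 genes in 2 groups), 2 held a library far from the other 3, and chance gives such a gap in about 1 of 20 groups. Ackr2, the atypical receptor for inflammatory CC chemokines, was at 0.721 CPM in WT 1119 and at 0.926 to 0.932 CPM in the other 3 WT libraries. Cxcl1 was at 7.75 CPM in GOAT KO 1140 and at 5.69 to 5.97 CPM in the other 3 GOAT KO libraries. The cause of either gap was not tested.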

How the results depend on the processing

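Of the 22 tested genes, 1 was called, lower in GOAT KO, and 2 had p below 0.05. DESeq2 called 0 (0 lower), with 1 at p below 0.05, no filter on low counts called 4 of 53 (4 lower), with 5 at p below 0.05 and 34 below 0 in log2 fold change, and the 6 libraries called 2 (2 lower). Leaving out each library gave 0 to 3 calls (0 to 3 lower) and 0 to 4 genes at p below 0.05. The highest were without WT 1120 (3 calls and 4 genes, with Cxcl10 at -0.69 and Cxcl12 at -0.31), and Cxcl5 was called at -1.19 without GOAT KO 1140. The median log2 fold change ran from -0.18 to -0.08. None of the 22 passed adjustment at any setting (smallest adjusted p 0.330 with the 6 libraries, 0.354 without WT 1120). Over all genes 309 were called, 691 without a filter, 226 in DESeq2 and 404 with the 6 libraries. Without WT 1120 the calls over all genes were 440, and without GOAT KO 1140 they were 332. In edgeR 799 of 16854 genes had an unadjusted p below 0.05 in the main fit, and 1771 had it without WT 1120. Cxcl1 ran from -0.62 to -0.35, Cxcr3 from -0.73 to -0.40.

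With the 6 libraries the sign turned for Ackr3 (-0.030), Ccl6 (-0.31), Ccl9 (-0.10), Ccr2 (-0.11) and Cxcl14 (0.11). With all 8 libraries, the log2 ratio of Cxcl14 junction reads was -0.029 when scaled by all junction reads. Leaving out each library turned Ackr2 (-0.24 to 0.13), Ackr3 (-0.065 to 0.14), Ackr4 (-0.26 to 0.46), Ccl2 (-0.45 to 0.010), Ccl27a (-0.14 to 0.014), Ccl28 (-0.27 to 0.33), Ccl6 (-0.38 to 0.42), Ccl9 (-0.18 to 0.48), Ccr1 (-0.55 to 0.015), Cx3cr1 (-0.27 to 0.15) and Cxcl14 (-0.17 to 0.060). The cause was not tested. With 3 libraries in a group the spread is shared with the other group. Genes near 0.5 CPM rest on few counts, with 94 in all for Cxcl5 and 95 for Ccl2. No paired analysis was possible because the groups share no replicate number.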

Other observations

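Below the limit for a test, a few ligands and receptors of T cells, NK cells and myeloid cells had fewer counts in the libraries labelled GOAT KO. These genes were singled out after their values were seen. Ccl3, an inflammatory ligand of Ccr1, had 10, 3, 10 and 15 counts in WT and 1, 2, 5 and 1 in GOAT KO. Ccl5, a T cell ligand that also binds Ccr1, had 7, 4, 8 and 6 counts in WT and 3, 4, 2 and 1 in GOAT KO. The groups overlapped for both, since WT 1119 had no more counts than the highest GOAT KO library. In edgeR without a filter on low counts the log2 fold changes were -2.02 (SE 0.57, unadjusted p = 0.00261) for Ccl3, -1.27 (SE 0.51, unadjusted p = 0.0246) for Ccl5, and -0.97 (SE 0.43, unadjusted p = 0.0369) for Cxcr6, with an adjusted p of 0.839 for each. At this setting 2.52% of 27459 genes were called. Of the 31 members below the limit with a count, 17 had a log2 fold change below 0.

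In the other direction Ackr1, the atypical receptor of red cells and venules, had 1, 2, 3 and 2 counts in WT and 6, 2, 6 and 4 in GOAT KO (log2 fold change 1.13, SE 0.56, unadjusted p = 0.0609 in edgeR). Ccl11, the eosinophil chemokine, had 6, 6, 3 and 7 counts in WT and 21, 10, 2 and 4 in GOAT KO, and its highest value was in GOAT KO 1139.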
